A study of Mus musculus with 6 samples.

Results

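The Wnt pathway genes described here are 54 genes for Wnt ligands, receptors, transducers, inhibitors, and targets, listed by symbol. Of these, 45 have a row among the 21269 genes of the deposited table and 9 have none (Wnt2, Wnt5a, Fzd9, Ror2, Lgr5, Lef1, Dkk1, Dkk2, and Sfrp2). RNA was sequenced from HL-1 cells, a line derived from mouse atrial cardiomyocytes that keeps dividing in culture. Cells were transfected with 50 nM of LNA Control or of LNA Malat1, which targets the long noncoding RNA Malat1, and collected 48 hours later. Each group has 3 libraries from this 1 cell line, grown in Claycomb medium with norepinephrine, and nothing in the labels says whether they came from separate cultures, so p values measure the spread between these libraries, which may be technical.

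Wnt proteins are secreted, lipid-modified ligands that bind Frizzled receptors together with a co-receptor. In the canonical branch the signal passes through Dishevelled and halts the destruction complex, so that β-catenin escapes degradation, enters the nucleus, and joins TCF/LEF factors on target genes. Other branches act through planar cell polarity and calcium, and in the heart Wnt signals are known for roles in cardiac specification, valve and outflow tract formation, and the response to injury.

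Single ligand, receptor, and nuclear factor genes changed in opposite directions after LNA Malat1. Wnt9a rose to 183% of its control mean, whereas the ligand genes Wnt4 and Wnt11 fell. Fzd3 fell to 55.1%, whereas Fzd5 and Fzd1 rose by smaller amounts. β-Catenin mRNA (Ctnnb1) fell to 84.7%, the low-abundance TCF gene Tcf7 rose to 180%, and the matricellular gene Ccn4 rose to 155%. The changes of Wnt4, Wnt11, and Tcf7 rest on low counts and are less certain. Leaving out single libraries raised their adjusted p (limma) to as much as 0.073, 0.072, and 0.093. Wnt11 also fell by less than 1.5-fold, and 19.6% of all genes at the level of Tcf7 were called higher. Fzd5, Fzd1, and Ctnnb1 changed by less than 1.5-fold as well. In all, 14 of the 43 Wnt genes tested had an adjusted p of at most 0.05 (limma). That is near the 28.3% of all genes tested.

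The sequences upstream of the 3 ligand genes that passed the test are shown because these genes moved in opposite directions and a TCF/LEF match can be looked for in them. They are RefSeq promoter sequence (GRCm38.p6, plus strand, 5′ to 3′), limited to the bases that precede both the RefSeq start and the start of the gene in the deposited table. Capitals mark a match to CTTTGAT read on the minus strand, and the remaining bases are in lower case.
Wnt9a, chr11:59306680-59306927: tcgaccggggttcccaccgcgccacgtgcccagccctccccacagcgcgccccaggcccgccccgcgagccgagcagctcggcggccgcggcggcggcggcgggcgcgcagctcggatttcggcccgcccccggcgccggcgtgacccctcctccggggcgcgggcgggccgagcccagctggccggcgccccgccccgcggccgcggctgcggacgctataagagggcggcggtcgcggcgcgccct
Wnt4, chr4:137277385-137277488: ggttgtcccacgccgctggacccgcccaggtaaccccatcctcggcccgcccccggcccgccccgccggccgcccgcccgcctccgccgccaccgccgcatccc
Wnt11, chr7:98834862-98835111: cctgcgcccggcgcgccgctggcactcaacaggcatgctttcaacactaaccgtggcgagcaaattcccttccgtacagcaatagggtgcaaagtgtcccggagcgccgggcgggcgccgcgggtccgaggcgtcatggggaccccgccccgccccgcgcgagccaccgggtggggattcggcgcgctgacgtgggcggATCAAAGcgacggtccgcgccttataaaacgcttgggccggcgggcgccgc
The stretch upstream of Wnt9a has 84.3% G and C and 48 CG dinucleotides in 248 bases. That of Wnt4 has 83.7% and 16 in 104 bases, and that of Wnt11 has 70.8% and 37 in 250 bases. The match lies 51 bases before the start of Wnt11.

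A RefSeq window from 250 bases before to 50 bases after the start was given for 37 of the 54 genes, and both strands were searched for CTTTGAT and CTTTGTT, which are forms of the TCF/LEF recognition sequence and do not overlap each other. At least 1 of them lay in a window of 6 genes (Wnt5b, Wnt11, Fzd7, Apc2, Tcf7l2, and Dkk1), against 10.6% of the 27025 genes with a window. CTTTGAT was found for 2 genes, against 4.29% of all genes, and CTTTGTT for 4, against 6.68%. Some genes have several windows, with 55 for the 37 Wnt genes and 32851 for the 27025 genes. A Wnt gene thus had on average more windows that could hold a match, and no excess is read from these shares. Of the 9 genes that had a window and passed the test described below, 1 held a match, Wnt11. These matches describe letters in a window and not sites.

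Values are normalized counts, that is, reads per gene divided by 1 factor per library and rounded by the authors. They summed to between 4831007 and 4921406 in the LNA Control libraries and to between 4758777 and 4762957 in the LNA Malat1 libraries, and the factors recovered from the rounding gave between 4512277 and 5592891 reads per library. Malat1 itself was 5051, 5197, and 4369 in LNA Control against 2833, 2792, and 2732 in LNA Malat1, 57.2% of the control mean (adjusted p = 7.5e-06 in limma, log2 fold change −0.80 ± 0.07). LNA Malat1 replicates 1 and 3 differed by less than the sampling noise (chi-square per gene 0.949, where noise alone gives about 1). Replicates 1 and 2 were also within it (1.012 per gene), whereas replicates 2 and 3 were not (1.163), and the LNA Control pairs were far above it (2.094, 4.178, and 1.768). Because replicates 1 and 3 were closest, each mean ± SD takes them as 1 sample. This gives n = 2 for LNA Malat1, although all 3 libraries entered the test. Averaging replicates 1 and 3 removes the difference between them, so this SD can be far smaller than the spread of the 3 libraries. It is not a measure of how tight the LNA Malat1 group is, and the values of the single libraries are to be read instead. If they are 1 culture or library sequenced repeatedly, which the labels do not settle, p values over 3 libraries are too small. Of 14 cardiomyocyte markers, 12 have a row (Nppa and Sln have none, and Myh6 was at 7 or less in every library), and their sum was 15022 to 19002 in LNA Control and 21344 to 22722 in LNA Malat1, most of it Ttn. The 5 of 8 fibroblast markers with a row summed to 5304 to 5911 and to 4683 to 4817, with Col1a2 at 0 or 1 and no row for Dcn, Lum, and Tcf21. The 2 of 5 macrophage markers with a row (Cd68 and Csf1r) summed to 32 to 36 and to 54 to 81, the 3 of 6 endothelial markers to 22 to 31 and to 36 to 37, and the 4 smooth muscle markers to 1512 to 1678 and to 1553 to 1701. The part of these markers in the results on Wnt genes was not tested. In such bulk RNA, fewer cells of a type and less RNA per cell cannot be told apart.

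Of the 45 genes, 43 had a mean normalized count of at least 5 and were tested with limma together with all 15650 genes that passed that filter. To be called, a gene had to change at least 1.5-fold with an adjusted p no higher than 0.05. Log2 fold changes are LNA Malat1 minus LNA Control on the scale log2(normalized count + 1) and are given ± SE. Wnt9a, Tcf7, and Ccn4 were called higher and Wnt4 and Fzd3 lower. The 3 called higher compare with 8% of all genes tested, and the 2 called lower with 2.92% (10.9% in either direction). By the adjusted p alone, 7 Wnt genes rose, against 14.3% of all genes, and 7 fell, against 14%. Taking replicates 1 and 3 of LNA Malat1 together as 1 sample left 4 that rose and 4 that fell. The groups did not overlap for 20 of the 43 genes, 7 higher and 13 lower in LNA Malat1, while 41.3% of all genes tested did not overlap (20.5% higher and 20.8% lower). The median log2 fold change was 0.01 over the 43 genes and 0.02 over all genes tested. Read against these shares, the counts of Wnt genes called are near the background and are not a result about the list. The counts by role below rest on few genes each, and nothing particular to a role is read from them.

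Low-count genes in this table tended to be higher in LNA Malat1, and several Wnt genes are low. Among genes with a mean between 5 and 50 the median log2 fold change was 0.31 and 18.1% were called higher and 2.09% lower (20.2% in either direction). The 10 Wnt genes in that range had a median of −0.14, with Tcf7 called higher and Wnt4 called lower. By the adjusted p alone, 1 rose and 2 fell, against 18.5% and 2.4% of all genes in that range, and the groups did not overlap for 2 higher and 3 lower, against 27.1% and 5.14%. Among genes with a mean of at least 50 the median was −0.03, with 3.05% called higher and 3.33% lower (6.38% in either direction). The 33 Wnt genes there had a median of 0.01, with Wnt9a and Ccn4 called higher and Fzd3 called lower. By the adjusted p alone, 6 of these rose and 5 fell, against 12.2% and 19.7%. The groups did not overlap for 5 higher and 10 lower of these 33, against 17.2% and 28.5%.

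**Figure D1:**
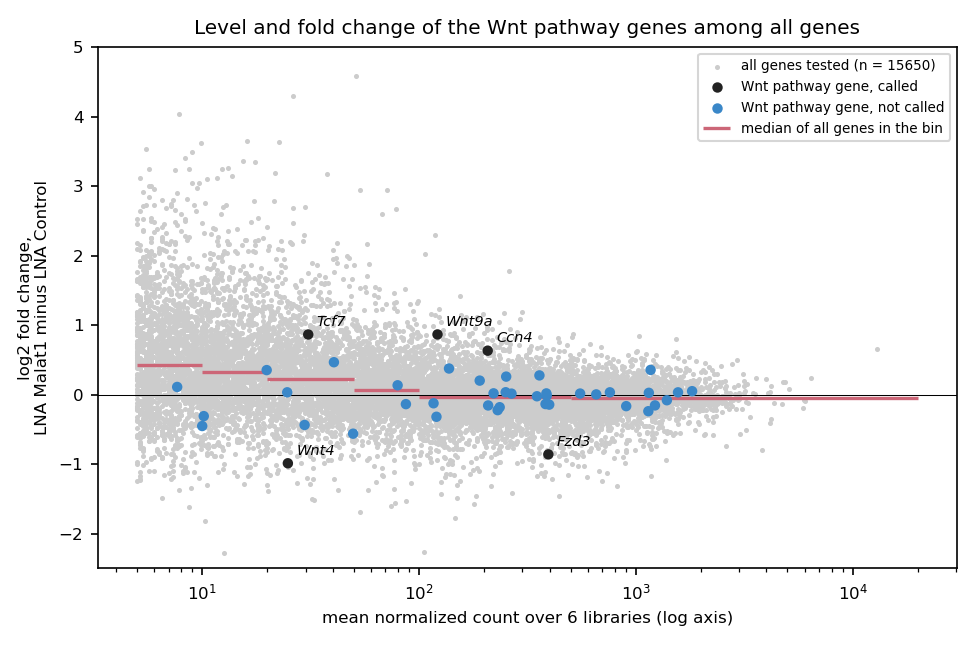
Log2 fold change (LNA Malat1 minus LNA Control) against the mean normalized count over the 6 libraries on a log axis, for all 15650 genes tested (grey) and the 43 Wnt genes (black where called, blue where not); red lines are the median of all genes in each bin of level. The median falls from 0.43 in the lowest bin to −0.05 in the highest, and the 5 called genes are Tcf7, Wnt9a, and Ccn4 above 0 and Wnt4 and Fzd3 below it.

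Levels can be compared between genes only per length, and here they are given as normalized count per kb of exon, as the mean of the LNA Control libraries. The highest were Ctnnb1 (238 per kb), the receptor gene Fzd6 (198), the casein kinase gene Csnk1a1 (170), and the receptor gene Ryk (145). Gsk3b (131), Wls (129), Bcl9l (129), and Lrp6 (105) followed. The ligand genes were far lower, with 25.8 for Wnt9a, 14.3 for Wnt11, 9.29 for Wnt5b, and 7.87 for Wnt4. The lowest were Rnf43 (0.152) and Nkd1 (0.146), the 2 genes under the filter.

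**Figure D2:**
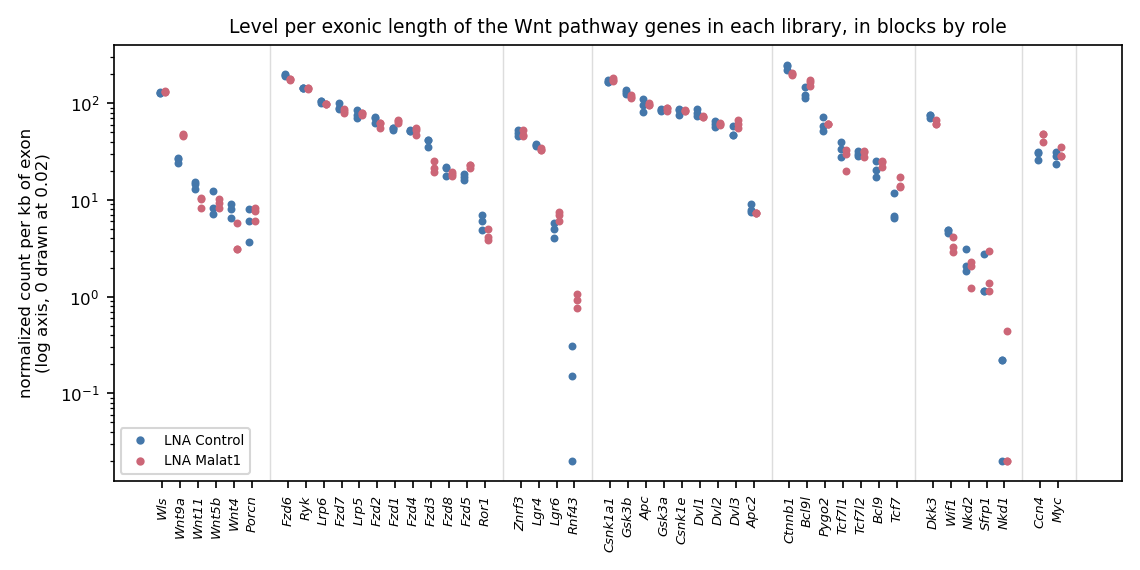
Normalized count per kb of exon (log axis, 0 drawn at 0.02) of the 45 Wnt genes in each library, blue for LNA Control and red for LNA Malat1, in blocks by role. Ctnnb1 is highest in both groups (238 per kb in LNA Control), Nkd1 is lowest, and the points of Wnt9a, Fzd3, and Ccn4 are apart between the groups.

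Of the 8 genes for ligands and their export, 6 have a row and all 6 were tested. By the adjusted p, 1 rose and 2 fell, against 14.3% and 14% of all genes tested, and the median log2 fold change was 0.03. Wnt9a (ENSMUSG00000000126, chr11:59306928-59333552 in mm10), a ligand gene known from joint formation and endocardial cushion growth, had 90, 80, and 88 in LNA Control against 162, 157, and 153 in LNA Malat1. Every LNA Malat1 library was well above every control library. The control mean of 86.0 ± 5.29 (SD, n = 3) compares with 157.2 ± 0.354 (SD, n = 2) after LNA Malat1, and the fit over all 6 libraries gave a log2 fold change of 0.87 ± 0.09 at an adjusted p of 2.2e-05 in limma. The SD of 0.354 leaves out the difference between LNA Malat1 replicates 1 and 3 (162 and 153) and understates the spread.

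Wnt4 (ENSMUSG00000036856, chr4:137277489-137299726), a ligand gene required for kidney tubule and female reproductive tract formation, moved the other way. Its normalized counts were 27, 34, and 38 in LNA Control against 13, 24, and 13 in LNA Malat1, so the groups did not overlap although LNA Malat1 replicate 2 lay close to the lowest control. Against a control mean of 33 ± 5.57 (SD, n = 3), the mean after LNA Malat1 was 18.5 ± 7.78 (SD, n = 2), and limma over all 6 libraries gave a log2 fold change of −0.99 ± 0.27 at an adjusted p of 0.015. With so few reads the call depended on single libraries: the adjusted p was 0.061 without LNA Control replicate 2, 0.073 without LNA Malat1 replicate 1, 0.072 without replicate 3, and 0.07 with replicates 1 and 3 as 1 sample, within a range over the 15 alternatives from 0.0036 to 0.073 and with log2 fold changes between −1.28 and −0.84.

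Wnt11 (chr7:98835112-98855195), a ligand gene of the noncanonical branches known from outflow tract and early heart development, had 54, 60, and 64 in LNA Control against 42, 44, and 34 in LNA Malat1. All LNA Malat1 libraries were below all control libraries. The log2 fold change was −0.56 ± 0.16, with an adjusted p of 0.017 in limma, just short of 1.5-fold. The adjusted p was 0.058 when LNA Control replicate 2 was left out and 0.072 when LNA Malat1 replicate 3 was (0.0057 to 0.072 over the 15 alternatives), whereas the gene passed both limits without LNA Control replicate 1 (log2 fold change −0.63), without LNA Malat1 replicates 1 or 2 (−0.60 and −0.63), and after quantile normalization (−0.72). An opposite-strand pseudogene, Gm8398, overlaps 8.8% of its exonic length.

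Wnt5b, a noncanonical ligand gene, had 22, 33, and 19 in LNA Control against 27, 25, and 22 in LNA Malat1, and the groups overlapped (adjusted p = 0.93 in limma, log2 fold change 0.03 ± 0.24). Porcn, which attaches the lipid that Wnt ligands need for secretion, had 18, 11, and 24 against 23, 18, and 25 (adjusted p = 0.39 in limma, log2 fold change 0.35 ± 0.29). Wls, the carrier that brings Wnt ligands to the cell surface, was the most abundant gene of this role, with 1145, 1133, and 1135 against 1142, 1176, and 1156. Its log2 fold change was 0.03 ± 0.05, with an adjusted p of 0.73 in limma.

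The make-up of the 4 ligand genes of the list shifted accordingly. Per kb of exon, Wnt9a made up 40.7 to 49.3% of the summed level of Wnt4, Wnt5b, Wnt9a, and Wnt11 in the LNA Control libraries and 64.7 to 70.1% in the LNA Malat1 libraries. The share of Wnt11 was 23.8 to 26.6% and then 12.5 to 14.6%, and that of Wnt4 was 11.7 to 15.6% and then 4.3 to 7.85%. The share of Wnt5b overlapped between the groups. Shares within a family are tied to each other, so the share of a gene can move without a change of that gene. The shares given here leave out the Wnt ligand genes outside the 54. Among those, Wnt7b had 13, 18, and 15 in LNA Control against 62, 44, and 47 in LNA Malat1. Wnt2b had 2, 5, and 5 against 7, 7, and 11, and Wnt9b had 16, 8, and 3 against 10, 9, and 4. Others, such as Wnt6, Wnt10a, and Wnt10b, were under the filter. The summed level of the 4 genes was 54.8 to 59.1 per kb in LNA Control and 65.6 to 72.9 in LNA Malat1, but the groups overlapped after quantile normalization (57.6 to 63.4 against 62.9 to 71.7).

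**Figure D3:**
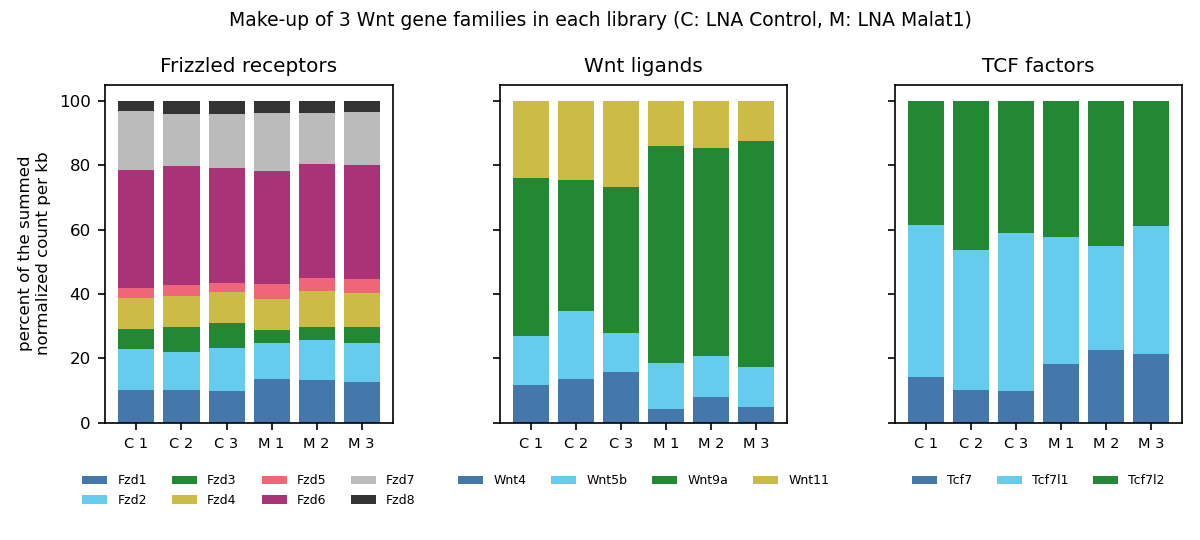
Percent of the summed normalized count per kb of exon taken by each gene of the Frizzled receptors, the Wnt ligands, and the TCF factors, as stacked bars from 0 to 100 for each LNA Control (C) and LNA Malat1 (M) library. Wnt9a takes the largest share of the 4 ligand genes plotted in every library, between 64.7 and 70.1% in LNA Malat1, and Tcf7 takes 18.2 to 22.7% of the TCF level there.

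Of the 14 receptor and co-receptor genes, 12 were tested, with a median log2 fold change of −0.10. By the adjusted p, 2 rose and 2 fell, against 14.3% and 14% of all genes tested. Fzd3 (ENSMUSG00000007989, chr14:65192449-65262463), a Frizzled receptor gene known for axon guidance and planar cell polarity, had 453, 537, and 537 in LNA Control against 249, 272, and 321 in LNA Malat1. The highest LNA Malat1 library was far below the lowest control. The control mean of 509 ± 48.5 (SD, n = 3) compares with 278.5 ± 9.19 (SD, n = 2) after LNA Malat1, and the fit over all 6 libraries gave a log2 fold change of −0.86 ± 0.09 at an adjusted p of 2.7e-05 in limma. Averaging LNA Malat1 replicates 1 and 3, the lowest and highest of the group (249 and 321), makes the SD of 9.19 understate the spread.

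Fzd6 (chr15:39006034-39038188), a receptor gene of planar cell polarity, had 970, 961, and 933 in LNA Control against 832, 861, and 859 in LNA Malat1, and the groups did not overlap. The change was small, with a log2 fold change of −0.17 ± 0.05 at an adjusted p of 0.023 in limma. It missed the threshold without LNA Control replicate 2 (adjusted p = 0.07) and when leaving out LNA Malat1 replicates 1, 2, or 3 (0.11, 0.06, and 0.066). It also missed it after quantile normalization (0.067), with library totals set equal (0.051), and with replicates 1 and 3 as 1 sample (0.075), was at 0.05 after rounding in voom, and over the 16 alternatives the adjusted p ranged from 0.012 to 0.11.

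Fzd5 (chr1:64730558-64737751), a receptor gene needed in placenta and eye development, had 121, 127, and 111 in LNA Control against 159, 149, and 158 in LNA Malat1. All LNA Malat1 libraries lay above the controls, with a log2 fold change of 0.38 ± 0.09 at an adjusted p of 0.0061 in limma, and 17.8% of its exonic length is overlapped on the other strand by the gene model Gm38058. Fzd1 (chr5:4753839-4758035), a receptor gene with a single exon, had 234, 231, and 224 against 281, 279, and 265. The groups were again apart, with a log2 fold change of 0.26 ± 0.06 at an adjusted p of 0.0079 in limma.

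The other Frizzled genes did not pass the test. Fzd2 had 256, 232, and 263 against 203, 230, and 229, which did not overlap (adjusted p = 0.092 in limma, log2 fold change −0.18 ± 0.08). Fzd7, Fzd8, and Fzd4 had log2 fold changes of −0.14, −0.12, and −0.02 with adjusted p values of 0.13, 0.41, and 0.82 (limma), and their groups overlapped. Among the 8 Frizzled genes, Fzd3 took 6.43 to 7.79% of the summed level per kb in LNA Control and 3.96 to 4.97% in LNA Malat1, while Fzd1 went from 9.86 to 10.2% to 12.5 to 13.6% and Fzd5 from 2.96 to 3.41% to 4.26 to 4.68%. Fzd6 remained the largest, at 35.8 to 37.0% and 35.2 to 35.4%. The summed Frizzled level was 538 to 551 per kb in LNA Control and 491 to 506 in LNA Malat1, and the groups were also apart under each of the 3 other scalings.

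Lrp6, the co-receptor that pairs with Frizzled in the canonical branch, had 1435, 1454, and 1400 in LNA Control against 1352, 1348, and 1353 in LNA Malat1. The groups did not overlap, but the difference was small and did not pass the test (adjusted p = 0.23 in limma, log2 fold change −0.08 ± 0.05). Its relative Lrp5 had 837, 731, and 687 against 774, 746, and 779, with overlapping groups (adjusted p = 0.76 in limma, log2 fold change 0.03 ± 0.07). Ryk, an alternative Wnt receptor, had nearly equal means of 656 and 657.3 (adjusted p = 0.97 in limma, log2 fold change 0 ± 0.05). Ror1, a receptor for noncanonical ligands, had 40, 28, and 35 against 24, 22, and 29, where only LNA Malat1 replicate 3 reached into the control range (adjusted p = 0.13 in limma, log2 fold change −0.44 ± 0.21), and it was called lower after quantile normalization (−0.71, adjusted p = 0.02).

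R-spondin receptors and the ligases that remove Frizzled from the membrane set how much receptor a cell displays. None of the 3 genes tested for this role passed the test, which 28.3% of all genes tested did. Lgr6, an R-spondin receptor gene, had 28, 34, and 40 in LNA Control against 48, 42, and 51 in LNA Malat1, and the groups did not overlap (adjusted p = 0.068 in limma, log2 fold change 0.47 ± 0.18). Without LNA Control replicate 3 it was called higher (log2 fold change 0.59, adjusted p = 0.029). Among all genes with a mean between 20 and 50, as Lgr6 has, 19.6% were called higher in the fit over all libraries. Between 5 and 50, 27.1% of all genes were higher without overlap. Lgr4 had 213, 226, and 220 against 196, 193, and 202, apart in the other direction (adjusted p = 0.096 in limma, log2 fold change −0.16 ± 0.07), and the ligase gene Znrf3 overlapped (adjusted p = 0.89 in limma, log2 fold change −0.02 ± 0.07). The ligase gene Rnf43 was under the filter, with 1, 2, and 0 in LNA Control against 5, 7, and 6 in LNA Malat1, and was called higher only where no filter was used.

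**Figure D4:**
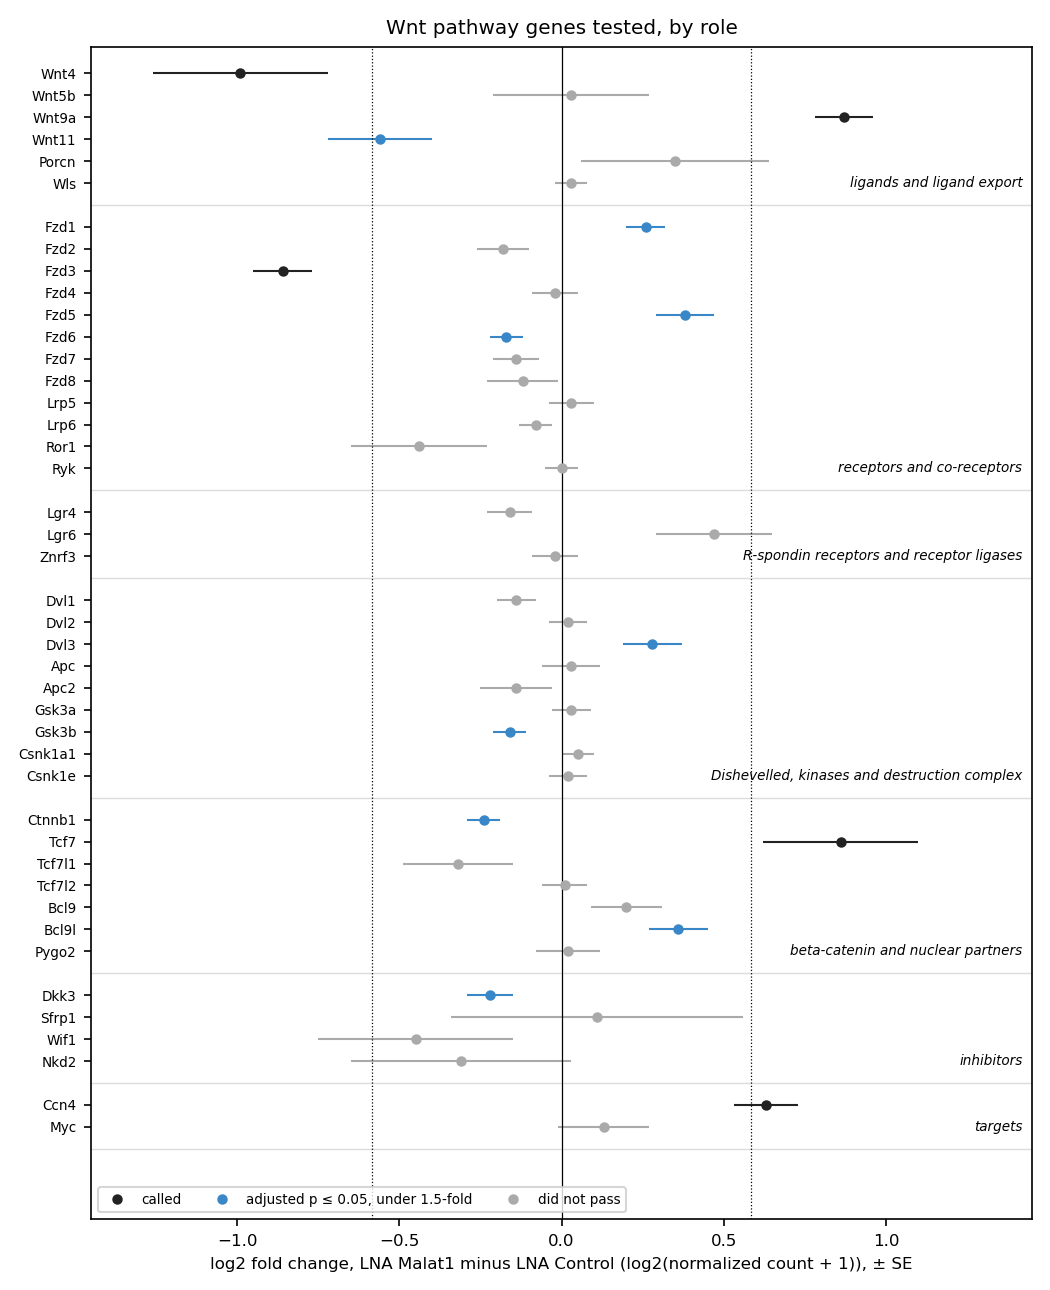
Log2 fold change ± SE of the 43 Wnt genes tested, LNA Malat1 minus LNA Control on the scale log2(normalized count + 1), in blocks by role, with dotted lines at a 1.5-fold change in each direction. Black points are the 5 genes called, blue points the genes that passed the adjusted p alone, and grey points those that did not pass.

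Dishevelled, the kinases, and the scaffolds of the destruction complex changed little. Of 9 genes tested, 1 rose and 1 fell by the adjusted p, against 14.3% and 14% of all genes tested. None was called, against 10.9% of all genes, and the log2 fold changes lay between −0.16 and 0.28. Dvl3 (chr16:20516982-20534010), 1 of the 3 Dishevelled genes, had 375, 302, and 299 in LNA Control against 428, 357, and 394 in LNA Malat1. The highest control lay above the lowest LNA Malat1 library, and the log2 fold change was 0.28 ± 0.09, with an adjusted p of 0.038 in limma. It missed the threshold without LNA Control replicates 2 or 3 (adjusted p = 0.16 and 0.10) and without LNA Malat1 replicates 1 or 3 (0.18 and 0.12), with these 2 as 1 sample (0.14), and with no filter (0.10), within a range of 0.00067 to 0.18 over the 16 alternatives.

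Gsk3b (chr16:38089001-38246084), a kinase that marks β-catenin for degradation, had 1341, 1302, and 1231 in LNA Control against 1152, 1120, and 1205 in LNA Malat1. The groups did not overlap, with a log2 fold change of −0.16 ± 0.05 at an adjusted p of 0.049 in limma. Leaving out any library but LNA Control replicate 3 raised the adjusted p above 0.05, namely to 0.09 and 0.13 without LNA Control replicates 1 and 2 and to 0.15, 0.18, and 0.073 without LNA Malat1 replicates 1, 2, and 3. It was also above 0.05 after quantile normalization (0.15), with library totals set equal (0.10), in voom (0.094), with no filter (0.067), and with replicates 1 and 3 as 1 sample (0.10), within a range of 0.011 to 0.18 over the 16 alternatives. Its paralog Gsk3a had 249, 243, and 252 against 242, 259, and 261 (adjusted p = 0.73 in limma, log2 fold change 0.03 ± 0.06), with 28.3% of its exonic length overlapped by an antisense gene.

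Apc, the scaffold of the destruction complex, varied more between the control libraries than between the groups, with 1303, 1562, and 1797 in LNA Control against 1552, 1609, and 1566 in LNA Malat1. Its log2 fold change was 0.03 ± 0.09, with an adjusted p of 0.82 in limma (0.12 to 0.93 over the 16 alternatives). Without LNA Control replicate 1 it was −0.09. Its relative Apc2 had 102, 88, and 84 against 83, 82, and 83, which was lower without overlap but did not pass the test (adjusted p = 0.38 in limma, log2 fold change −0.14 ± 0.11). Csnk1a1, the casein kinase that primes β-catenin for Gsk3, had 1848, 1755, and 1756 against 1804, 1913, and 1828 (adjusted p = 0.53 in limma, log2 fold change 0.05 ± 0.05). Csnk1e and Dvl2 both had log2 fold changes of 0.02 (limma, adjusted p = 0.88 and 0.87), and 18.3% of the exonic length of Dvl2 is shared with Acadvl on the other strand. Dvl1 had 436, 396, and 373 against 370, 363, and 361 (adjusted p = 0.13 in limma, log2 fold change −0.14 ± 0.06). Within the Dishevelled genes the share of Dvl1 per kb was 40.9 to 43.3% in LNA Control and 36.7 to 38.2% in LNA Malat1, and that of Dvl3 was 25.5 to 27.7% and 29.3 to 33.2%. These shares depend on each other, and Dvl1 itself did not pass the test.

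Of the 7 genes tested for β-catenin and its nuclear partners, 2 rose and 1 fell by the adjusted p. Of all genes tested, 14.3% rose and 14% fell by it. Ctnnb1 (ENSMUSG00000006932, chr9:120929216-120960507), which encodes β-catenin and also serves at cell junctions, had 1260, 1287, and 1163 in LNA Control against 1068, 1056, and 1017 in LNA Malat1. All LNA Malat1 libraries were below all controls. Against a control mean of 1237 ± 65.2 (SD, n = 3), the mean after LNA Malat1 was 1049 ± 9.55 (SD, n = 2), and limma over all 6 libraries gave a log2 fold change of −0.24 ± 0.05 at an adjusted p of 0.0062. Here too the SD after LNA Malat1 leaves out the difference between replicates 1 and 3 (1068 and 1017). The gene Ulk4 overlaps 14.6% of the exonic length of Ctnnb1 on the other strand, and whether the counting used strand is not given in the sources used here.

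Tcf7 (ENSMUSG00000000782, chr11:52252371-52283331), a TCF factor gene best known from T cells, was the lowest of the 3 TCF genes per kb. Its normalized counts were 31, 17, and 18 in LNA Control against 36, 37, and 46 in LNA Malat1, apart but with LNA Control replicate 1 close to the lower LNA Malat1 libraries. The control mean of 22 ± 7.81 (SD, n = 3) compares with 39 ± 2.83 (SD, n = 2) after LNA Malat1, and the fit over all 6 libraries gave a log2 fold change of 0.86 ± 0.24 at an adjusted p of 0.017 in limma. As above, the SD of 2.83 leaves out the difference between LNA Malat1 replicates 1 and 3 (36 and 46). The call was lost without LNA Control replicate 2 (adjusted p = 0.078), without LNA Malat1 replicates 2 or 3 (0.051 and 0.093), with replicates 1 and 3 as 1 sample (0.062), and after quantile normalization (log2 fold change 0.60, adjusted p = 0.086), and over the 15 alternatives the adjusted p ranged from 8e-04 to 0.093. Among all genes with a mean between 20 and 50, as Tcf7 has, 19.6% were called higher.

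Tcf7l2, the TCF gene with the most exonic length here, had 285, 262, and 250 in LNA Control against 278, 246, and 281 in LNA Malat1, with overlapping groups (adjusted p = 0.91 in limma, log2 fold change 0.01 ± 0.07). Its sign turned in 5 of the 16 alternatives, with log2 fold changes between −0.03 and 0.08 and adjusted p values from 0.52 to 0.98. Tcf7l1, often a repressor of targets, had 156, 110, and 133 against 117, 78, and 128 (adjusted p = 0.18 in limma, log2 fold change −0.32 ± 0.17). Per kb, the share of Tcf7 among the 3 genes was 9.9 to 14.1% in LNA Control and 18.2 to 22.7% in LNA Malat1, that of Tcf7l1 was 43.6 to 49% and 32.1 to 39.7%, and their summed level overlapped between the groups. The share of Tcf7l1 depends also on Tcf7, and the counts of Tcf7l1 itself overlapped between the groups.

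Bcl9l (chr9:44482825-44511896), an adaptor that links β-catenin to Pygopus, had 1190, 982, and 915 in LNA Control against 1380, 1217, and 1333 in LNA Malat1. The groups did not overlap, although LNA Control replicate 1 came close to LNA Malat1 replicate 2, and the log2 fold change was 0.36 ± 0.09, with an adjusted p of 0.0081 in limma. The adjusted p was 0.053 without LNA Control replicate 2, 0.059 without LNA Malat1 replicate 1, 0.051 without replicate 3, and 0.057 with replicates 1 and 3 as 1 sample (1.3e-05 to 0.059 over the 16 alternatives), and the gene model Gm47205 overlaps 8.3% of its exonic length on the other strand. Its paralog Bcl9 had 212, 148, and 174 against 211, 185, and 213 and overlapped (adjusted p = 0.21 in limma, log2 fold change 0.20 ± 0.11). The Pygopus gene Pygo2 had group means of 220.3 and 221 (adjusted p = 0.91 in limma, log2 fold change 0.02 ± 0.10).

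Of the 8 inhibitor genes, 5 have a row and 4 were tested. None was called, and 1 fell by the adjusted p, against 14% of all genes tested. Dkk3 (chr7:112116017-112159057), a divergent member of the dickkopf family of secreted proteins, had 238, 255, and 252 in LNA Control against 205, 205, and 228 in LNA Malat1, without overlap. Its log2 fold change was −0.22 ± 0.07, with an adjusted p of 0.03 in limma. It missed the threshold without LNA Control replicates 2 or 3 (adjusted p = 0.10 and 0.062) and without LNA Malat1 replicates 1 or 2 (0.12 and 0.11), and after quantile normalization (0.073), with library totals set equal (0.063), and in voom (0.068), within 0.018 to 0.12 over the 16 alternatives. The other inhibitors were low. Wif1, which binds ligands outside the cell, had 11, 12, and 12 against 8, 7, and 10 (adjusted p = 0.28 in limma, log2 fold change −0.45 ± 0.30), without overlap, and was called lower after quantile normalization (log2 fold change −0.90, adjusted p = 0.042). Sfrp1, another ligand-binding antagonist, had 5, 5, and 12 against 5, 6, and 13, and Nkd2, which binds Dishevelled, had 10, 15, and 9 against 11, 6, and 10, with overlapping groups for both (limma, adjusted p = 0.88 and 0.53). Nkd1, under the filter, was at 2 or less in every library.

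The 2 target genes differed. Ccn4 (ENSMUSG00000005124, chr15:66891320-66923201), a matricellular protein gene first described as induced by Wnt signals, had 169, 144, and 174 in LNA Control against 271, 266, and 220 in LNA Malat1. All LNA Malat1 libraries were above all controls. Against a control mean of 162.3 ± 16.1 (SD, n = 3), the mean after LNA Malat1 was 255.8 ± 14.5 (SD, n = 2), and limma over all 6 libraries gave a log2 fold change of 0.63 ± 0.10 at an adjusted p of 0.00044. Again the SD after LNA Malat1 leaves out the difference between replicates 1 and 3 (271 and 220). The fold change fell under 1.5 without LNA Control replicate 2 (0.55, adjusted p = 0.0044) and without LNA Malat1 replicate 1 (0.58, adjusted p = 0.0066), and over the 16 alternatives the adjusted p ranged from 6.2e-05 to 0.0066. Myc, a growth regulator gene and a textbook β-catenin target, had 86, 64, and 78 against 96, 77, and 77, with overlapping groups (adjusted p = 0.51 in limma, log2 fold change 0.13 ± 0.14).

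**Figure D5:**
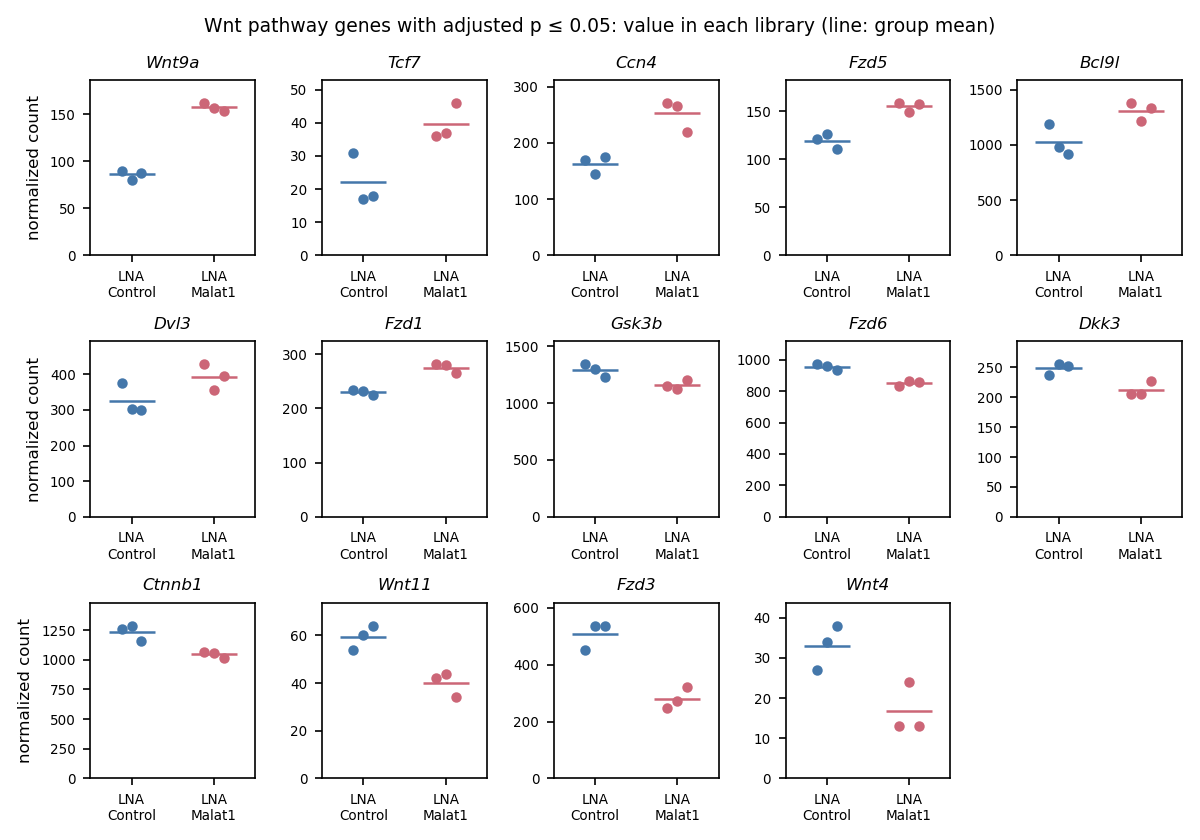
Normalized count of the 14 Wnt genes with an adjusted p of at most 0.05 in each of the 3 LNA Control (blue) and 3 LNA Malat1 (red) libraries, with a line at the group mean and every axis starting at 0. The groups are apart for every gene shown but Dvl3, and the gap is widest relative to the level for Wnt9a and Fzd3.

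A further list of 118 Wnt pathway genes was taken for comparison, of which 92 have a row and 80 were tested, with a median log2 fold change of −0.06. Of these 80, 8 were called higher and 5 lower, against 8% and 2.92% of all genes tested, and 12 rose and 21 fell by the adjusted p, against 14.3% and 14%. The mean was under 50 for 6 of the 8 called higher (Wnt7b, Gpc3, Daam2, Shisa2, Fosl1, and Tbx3), a range in which 18.1% of all genes were called higher. At a mean of 50 or more, 20 of 60 fell by the adjusted p, against 19.7% of all genes at that level. Those called higher were the ligand gene Wnt7b (1.67), the glypican gene Gpc3 (1.47), the planar polarity cadherin gene Celsr2 (0.94), the formin gene Daam2 (0.59), the Frizzled-retaining Shisa2 (1.27), and the targets Fosl1 (2.18), Tbx3 (1.49), and Ephb3 (0.61), as log2 fold changes. Those called lower were the tankyrase gene Tnks (−0.94), which controls axin turnover, the Dishevelled-like Dixdc1 (−0.95), the deubiquitinase gene Usp7 (−0.69), Frat2 (−0.59), which binds Gsk3, and the secreted antagonist gene Sfrp5 (−0.63). Some of these calls rested on single libraries. Frat2 had an adjusted p of 0.079, 0.082, and 0.051 without LNA Control replicates 1, 2, and 3 and of 0.15 and 0.069 without LNA Malat1 replicates 1 and 2. Daam2 had 0.078 and 0.13 without LNA Control replicates 1 and 2 and 0.068, 0.13, and 0.14 without LNA Malat1 replicates 1, 2, and 3. Shisa2 had 0.056 without LNA Control replicate 2 and 0.053 and 0.094 without LNA Malat1 replicates 2 and 3, and Sfrp5 fell under 1.5-fold without LNA Malat1 replicate 2 (log2 fold change −0.51). Taking replicates 1 and 3 as 1 sample gave 0.066 for Frat2, 0.085 for Daam2, and 0.058 for Shisa2, and quantile normalization gave 0.21 for Daam2 and 0.096 for Shisa2. Among the 22 genes of this list for the destruction complex and transducers, 0 rose and 8 fell by limma's adjusted p. Of all genes tested, 14.3% rose and 14% fell by it. A negative log2 fold change was found for 19 of the 22, and their median was −0.10, against 0.02 over all genes tested. At a mean of at least 50, 7 of 19 fell, beside the 19.7% of all genes at that level, and nothing particular to these genes is read from the count. Axin2, the target most often read as a measure of canonical signaling, had 16, 12, and 17 in LNA Control against 24, 18, and 20 in LNA Malat1, without overlap (0.44, limma, adjusted p = 0.21). Among all genes with a mean between 10 and 20, as Axin2 has, the median log2 fold change was 0.32. Between 5 and 50, 27.1% of all genes were higher without overlap, so no change in canonical signaling is read from it. Of the 11 targets of this list that were tested, 4 rose and 2 fell by limma's adjusted p, against 14.3% and 14% of all genes tested. Their median log2 fold change was −0.03, and 7 were negative. The 2 that fell were Ccnd1, with 266, 280, and 271 against 196, 201, and 187 (−0.48, limma, adjusted p = 0.00015), and Bambi (−0.52, limma, adjusted p = 0.0052).

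By the annotation in the deposited table, 32 of the 45 Wnt genes carry the KEGG Wnt pathway term. The GO term Wnt signaling pathway or canonical Wnt signaling pathway is carried by 41, and terms on its regulation were not counted. Of all 117 genes with the KEGG term, 105 were tested, and 5 were called higher and 6 lower. Leaving out the Wnt genes described here left 74, of which 3 were called higher and 4 lower, against 8% and 2.92% of all genes tested. By the adjusted p, 7 of the 74 rose and 21 fell, against 14.3% and 14%, and of the 59 with a mean of at least 50, 19 fell, against 19.7%. Nothing particular to the pathway is read from these counts.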

How the data were processed

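Normalized counts were taken from 1 deposited table of 6 libraries, 3 LNA Control and 3 LNA Malat1, grouped by sample title. Per the methods of the study and the submitters' processing notes, reads were trimmed with Trimmomatic 0.39, aligned to mm10 with STAR 2.7.7a, and counted per gene with featureCounts 1.6.5, leaving out reads on several genes, and DESeq2 1.30.0 was used. Each deposited value is a score, a count divided by 1 factor per library and then rounded by the authors, so tests for raw counts were not used. The table holds no comparison columns.

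Genes with a mean of at least 5 entered limma 3.58.1 under R 4.3.3 (lmFit, eBayes with trend, two-sided, Benjamini-Hochberg over 15650 genes) on log2(normalized count + 1). The test was checked on simulated data with the same spread in both groups and no drift with level. That check does not cover the unequal spread of the groups or the drift of low-count genes seen here. An exact permutation test of 3 against 3 cannot go below p = 0.1 and was not used for single genes. Depth was recovered from the rounding, and its noise covers counting error only. Exonic lengths and overlaps came from GENCODE M21 (mm10) and promoters from RefSeq.

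The Wnt genes and lists were chosen with earlier results of these data known. Every Wnt gene is accounted for by role, with each library's value for those with an adjusted p of at most 0.05 and for Ctnnb1, Apc, Gsk3b, Lrp6, Tcf7l2, and Myc, and of the further list the called genes are named. Other genes, Axin2, Ccnd1, and Bambi among them, were named after their values were seen. Alternatives were other pseudocounts, scalings, filters, and fold change limits, voom, a replicate block, LNA Malat1 replicates 1 and 3 as 1 sample, and leaving out each library.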

Additional observations from a re-analysis of the deposited data

How the results depend on the processing

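Wnt9a and Fzd3 were called under every scaling, filter, pseudocount, block, and left-out library tried, though neither changed 2-fold, and Fzd1, Fzd5, and Ctnnb1 kept an adjusted p of at most 0.05 in all 16 of these alternatives. Over the named genes, 404 values kept direction and side of the threshold, 76 kept direction only, and 6 turned sign, all without passing the test. Those were Apc without LNA Control replicate 1 (−0.09) and Tcf7l2 with median-of-ratios scaling (0), with LNA Malat1 replicates 1 and 3 merged (−0.02), and without LNA Control replicate 3 (−0.03), LNA Malat1 replicate 1 (−0.01), or replicate 3 (−0.02). With 1 library left out, Apc ranged from −0.09 to 0.14 and Tcf7l2 from −0.03 to 0.08. The causes were not tested. Low counts limit Wnt4, Tcf7, Wif1, Sfrp1, and Nkd2.

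The 5 Wnt calls (3 higher, 2 lower) became 3 with a mean of at least 50 (1 lower) and 3 when LNA Malat1 replicates 1 and 3 were 1 sample (1 lower), both for want of Wnt4 and Tcf7, and 2 to 6 with 1 library left out (1 to 4 higher, 1 to 3 lower). With no fold change minimum there were 14 (7 and 7), with a fold change of at least 2 there were 0, and in a limma test against a 1.5-fold change 0, although 14 Wnt genes had an adjusted p of at most 0.05 against no change. Quantile normalization gave 5 lower. The 14 Wnt genes that passed the adjusted p alone became 8 with replicates 1 and 3 as 1 sample (4 and 4) and 6 to 14 with 1 library left out (4 to 8 higher, 2 to 7 lower), and those that fell became 4 with library totals set equal and 4 with voom. The 13 further Wnt pathway genes called (8 higher, 5 lower) became 6 with a mean of at least 50 (2 higher), 33 with no fold change minimum (21 lower), 5 with a fold change of at least 2 (5 higher, 0 lower), and 5 in the test against 1.5-fold (3 and 2), and quantile normalization gave 5 higher and 8 lower. Of all genes, 1709 were called (1252 higher, 457 lower), with 666 at a mean of at least 50 (317 higher), 4426 with no fold change minimum (2231 and 2195), 841 with a fold change of at least 2 (742 and 99), and 291 in the test against 1.5-fold (192 and 99). Quantile normalization gave 748 higher and 718 lower, replicates 1 and 3 as 1 sample gave 831 higher, and leaving out 1 library gave 810 to 1582 higher. The share of calls that were higher was 73.3%, 51% after quantile normalization, and 47.6% at a mean of at least 50.

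The labels do not say that a replicate number marks a shared culture or day, and the deviations of same-numbered libraries correlated by 0.086, 0.182, and 0.083 over 10490 genes, not all above 0.1, so the numbers were not taken as pairs. Every library correlated best with its own number (other pairs −0.189 to 0.046), a hint from the data and not from the design. With the number as a replicate block the same 5 Wnt genes were called, and of the named genes Frat2 alone missed the threshold (−0.59, adjusted p = 0.05 after rounding).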
